A study of Bos taurus with 18 samples.

Results

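The motile cilia genes described here are 37 genes whose products build, assemble or switch on the beating cilia of the endometrial epithelium. They were taken by gene symbol from the deposited count table, not by a cut on their measured levels, but earlier results of these data were known. Of its 38001 rows, 34 carried a member's symbol. CFAP44, CFAP53 and RSPH9 had no row under their symbols and were not analysed here. CAPS had 0 counts in all 18 libraries, and the other 33 genes passed the filter on low counts and were tested among 19638 genes.

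Endometrial cells were brushed from 6 Holstein cows and sequenced as bulk poly(A) RNA, with 3 samples from each cow. Control samples came from day 4 and day 7 of an untreated Ovsynch-synchronized cycle, day 0 being estrus. The treated sample came from day 7 of a second synchronized cycle with an injection on day 4. The depot given to animals A, B and C (the 17-OHPC/P4 arm) held 100 mg 17α-hydroxyprogesterone caproate, a long-acting progestin, and 10 mg progesterone, whereas D, E and F (the P4 arm) were given 100 mg progesterone. The 6 groups therefore hold 3 animals each, and no allele or transgene is involved. In every animal the treated cycle followed the control cycle, so treatment and cycle cannot be told apart.

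A motile cilium is a bundle of microtubule doublets around a central pair, the axoneme, moved by dynein arms on the doublets and timed by radial spokes and the nexin-dynein regulatory complex. In the uterus it is carried by scattered ciliated cells of the luminal and glandular epithelium, between secretory cells. FOXJ1, RFX2, RFX3 and TP73 are transcription factors of the ciliated cell, acting after the regulators GMNC and MCIDAS have committed a cell to make many cilia. In many tissues, oviduct and uterus included, estrogen favours ciliated cells and progesterone opposes it.

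Library totals lay between 29347255 and 40733544 counts, with 21200 to 23297 genes detected. Epithelial identity was seen in every library: all 11 epithelial markers, EPCAM and CDH1 among them, had counts in each of the 18. All 8 stromal markers also had counts in every library, and their geometric mean ran from 7.20 CPM (the count scaled to library size) in animal F on control day 7 to 477 CPM in animal C on control day 4. The members together took 0.0136% to 0.323% of a library's counts. In bulk samples, fewer ciliated cells and less RNA per ciliated cell cannot be told apart.

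The 33 genes moved as a block from library to library. Their geometric mean was 10.8, 62.3 and 22.4 CPM in animals A, B and C on control day 4, then 9.88, 29.6 and 10.2 CPM on control day 7, and 4.12, 21.8 and 11.2 CPM on treated day 7. In animals D, E and F it was 9.30, 9.97 and 5.82 CPM on control day 4, then 5.52, 2.88 and 28.1 CPM on control day 7, and 22.7, 8.09 and 5.07 CPM on treated day 7. Animal B was the highest of its arm in each condition. In the P4 arm the order of the animals turned over: F was lowest on control day 4, highest on control day 7 and lowest again on treated day 7.

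**Figure D1:**
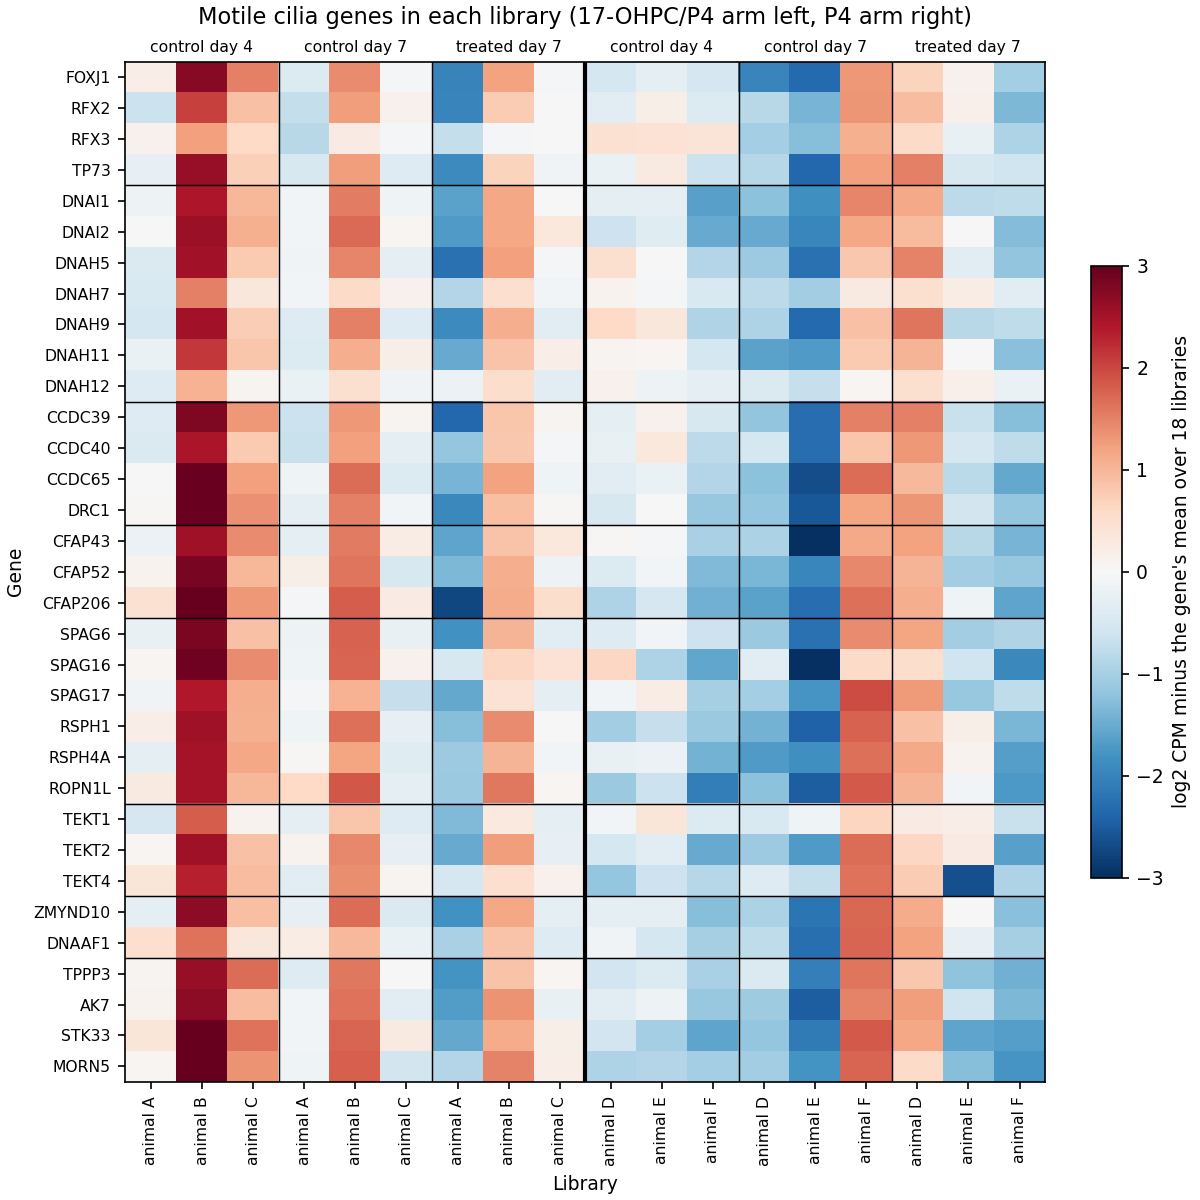
Each row is a motile cilia gene, ordered by role, and each column a library; the colour is log2 CPM minus that gene's mean over the 18 libraries, red above and blue below it. Animal B on control day 4 is the reddest column for nearly all genes and animal E on control day 7 the bluest, and whole columns share a colour.

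Animal B on control day 4 held the highest value of 32 of the 33 genes, and animal F on control day 7 that of DNAAF1. The lowest value lay in animal E on control day 7 for 28 genes, in animal A on treated day 7 for 4 and in animal E on treated day 7 for TEKT4. Between members, Spearman's rho over the 18 libraries had a median of 0.889 in 528 pairs, from 0.408 to 0.981. These libraries come from 6 animals and share depth scaling, so rho is a description here and carries no test. Over the 33 genes the SD of log2 CPM had a median of 1.28, against 0.62 for all genes tested. Differences between animals took a median of 51.5% of a member's variance and differences between the 6 group means 27.2%, where all genes tested had medians of 41.5% and 45.6% (shares that overlap, since each animal belongs to 1 arm).

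FOXJ1 (ENSBTAG00000007916), the forkhead factor that switches on motile cilia genes, is the usual marker of ciliated cells. It stood at 51.6, 301 and 129 CPM in animals A, B and C on control day 4, at 34.1, 122 and 43.9 on control day 7, and at 11.2, 104 and 43.3 on treated day 7. In animals D, E and F it was at 31.6, 36.7 and 31.9 CPM on control day 4, at 11.4, 9.01 and 111 on control day 7, and at 72.3, 49.4 and 22.4 on treated day 7. On control day 4 every 17-OHPC/P4 animal lay above every P4 animal, before either had been injected, and on day 7 the arms overlapped in both cycles. In all 3 animals of the 17-OHPC/P4 arm both later samples were below control day 4, whereas animal F alone was higher on control day 7 and then lower than at the start. The group means on control day 4 were 161 ± 128 CPM (SD, n = 3) in the 17-OHPC/P4 arm and 33.4 ± 2.89 CPM (SD, n = 3) in the P4 arm.

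**Figure D2:**
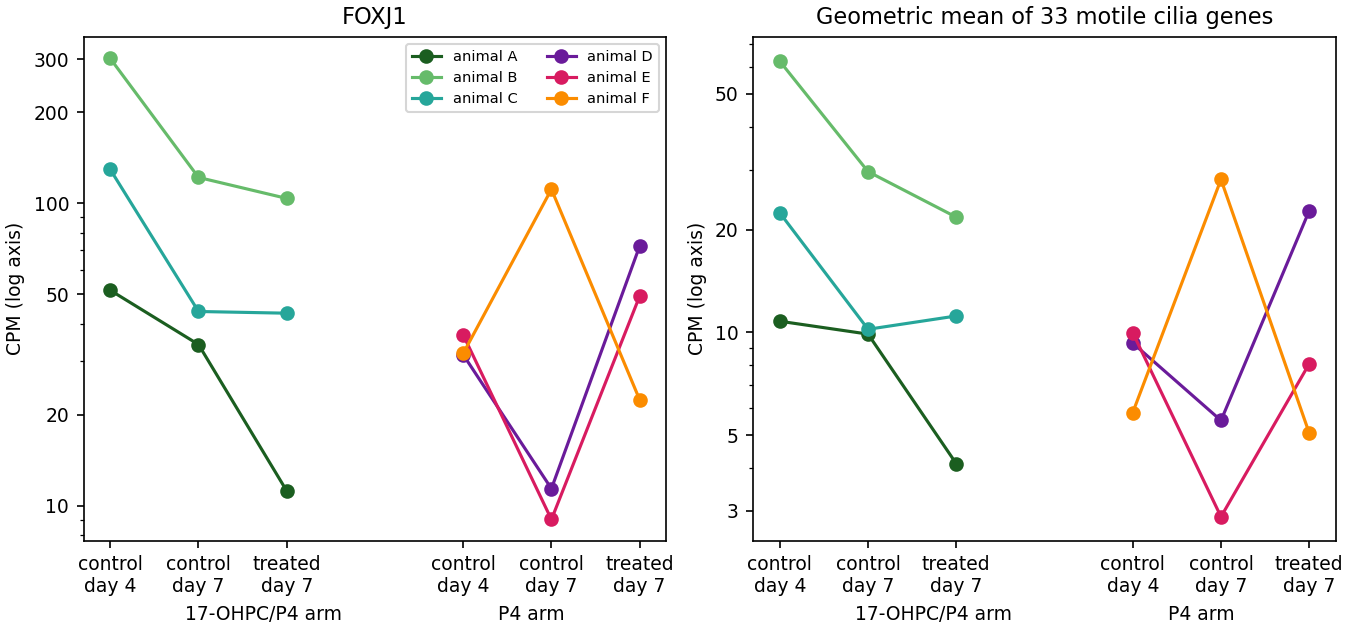
FOXJ1 (left) and the geometric mean of the 33 motile cilia genes (right) in CPM on a log axis, by condition; each line joins the 3 samples of 1 animal. In the 17-OHPC/P4 arm both day 7 points of each line lie below control day 4, and lines of the P4 arm cross, with animal F at 111 CPM of FOXJ1 on control day 7 against 11.4 and 9.01 CPM in animals D and E.

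Of the other factors, RFX2 and TP73 had rho 0.897 and 0.942 against the mean of the other members, with ranges of 2.14 to 35.8 CPM and 1.80 to 58.2 CPM. Unlike FOXJ1, both had overlapping arms on control day 4. RFX2 in animal A (5.49 CPM) lay below D, E and F (6.72, 9.72 and 6.45 CPM). TP73 in A (7.91 CPM) lay below D and E (8.22 and 11.4 CPM). RFX3, a regulatory factor X protein that also serves primary cilia and is found outside ciliated cells, had a much narrower range. Its lowest value was 4.99 CPM and its highest 29 CPM, a 5.81-fold span against 33.5-fold for FOXJ1, 32.3-fold for TP73 and 16.7-fold for RFX2. On control day 4 the P4 arm held RFX3 at 16.8, 16.7 and 16.1 CPM, within the 13.4 to 29 CPM of the 17-OHPC/P4 arm.

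The outer and inner dynein arms are the motors of the cilium, and their heavy chains are among the longest proteins of the cell. DNAH9 (ENSBTAG00000022509), an outer arm heavy chain, was at 19.4, 159 and 46.7 CPM in animals A, B and C on control day 4, at 21.5, 79.4 and 21.5 on control day 7, and at 7.45, 59.9 and 22.4 on treated day 7. The values of D, E and F were 42.1, 35.4 and 14.8 CPM on control day 4, 14.7, 5.54 and 51.6 on control day 7, and 84.4, 15.5 and 16.4 on treated day 7. The arms overlapped in all 3 conditions, since animal A lay below D and E on control day 4. DNAI1 and DNAI2, the intermediate chains at the base of the outer arm, and DNAH5 and DNAH11, further outer arm heavy chains, spanned 14.3-fold to 27.7-fold between their extreme libraries. DNAH7 and DNAH12, inner arm heavy chains, spanned only 5.89-fold and 3.33-fold.

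CCDC39 and CCDC40 form the ruler that spaces the arms along the doublet, and CCDC65 and DRC1 belong to the nexin-dynein regulatory complex that links doublets and coordinates bending. DRC1 (ENSBTAG00000009649) was at 30.9, 236 and 78.6 CPM in animals A, B and C on control day 4, at 24.9, 86.1 and 28.9 on control day 7, and at 7.90, 57.1 and 31.0 on treated day 7. In D, E and F it was at 21.8, 30.4 and 13.8 CPM on control day 4, at 13.6, 5.13 and 68.9 on control day 7, and at 76.2, 20.6 and 13.4 on treated day 7. DRC1 was the member nearest to the rest, with rho 0.990 against the mean of the other members over the 18 libraries. On control day 4 its 2 arms did not overlap, but the gap was narrow, from 30.4 CPM in animal E to 30.9 CPM in animal A.

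Among the cilia and flagella associated proteins, CFAP43 and CFAP206 act at the axoneme, CFAP206 at the base of a radial spoke, and CFAP52 lies inside the doublet. CFAP52 (ENSBTAG00000017823) was at 12.1, 80.5 and 22.4 CPM in animals A, B and C on control day 4, at 12.6, 34.1 and 7.95 on control day 7, and at 4.32, 23.9 and 9.97 on treated day 7. Animals D, E and F had 8.40, 10.6 and 4.42 CPM on control day 4, 4.30, 2.81 and 30.3 on control day 7, and 22.6, 5.35 and 5.0 on treated day 7. Animal A was nearly level between its control samples while B and C were lower on day 7, and the control day 4 arms did not overlap. CFAP206 had the widest range of any member with counts in every library, from 0.448 CPM in animal A on treated day 7 to 27.9 CPM in animal B on control day 4, a 62.4-fold span. The lower end rests on 14 counts, so the span is imprecise.

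The central pair and radial spoke genes encode the timing apparatus of the axoneme. SPAG6 (ENSBTAG00000033291), a central pair protein, was at 10.5, 86.4 and 22.4 CPM in animals A, B and C on control day 4, at 11, 41.4 and 10.3 on control day 7, and at 3.42, 24.8 and 9.81 on treated day 7. In animals D, E and F it was at 9.32, 11.4 and 7.85 CPM on control day 4, at 5.55, 2.53 and 32.6 on control day 7, and at 27.6, 5.90 and 6.52 on treated day 7. On control day 4 animal A lay below animal E, so the arms overlapped. SPAG17, also of the central pair, RSPH1 and RSPH4A, heads of the radial spoke, and ROPN1L, another spoke protein, spanned 18.3-fold to 32.5-fold. SPAG16 was close to the limit of detection: it had at most 101 counts in a library and none in animal E on control day 7, so its ratios carry little weight.

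The tektins are filaments inside the doublet wall. TEKT1 (ENSBTAG00000007437) was at 19.9, 98.9 and 30.4 CPM in animals A, B and C on control day 4, at 23.4, 50.5 and 21.6 on control day 7, and at 11.3, 34.6 and 23.5 on treated day 7. The values of D, E and F were 26.8, 36.2 and 21.2 CPM on control day 4, 20.6, 25.8 and 43.9 on control day 7, and 33.8, 32.5 and 17.7 on treated day 7. The arms overlapped in all 3 conditions. TEKT1 was flatter than TEKT2, 8.76-fold against 19.6-fold, and stayed at 25.8 CPM in the library of animal E where 28 members had their lowest value. TEKT4 followed the other members least closely within animals, with rho 0.544. In animal E on treated day 7 it had 0.349 CPM against 1.46 CPM on control day 7, while 32 of 33 members were higher in the treated library. In animal D it was at 1.83 CPM on control day 7 and 1.05 CPM on day 4, while 31 of 33 members were lower on day 7. TEKT4 had only 12 to 394 counts in a library, the 12 in animal E on treated day 7, so these departures rest on few counts.

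ZMYND10 and DNAAF1 fold and assemble dynein arms in the cytoplasm before they enter the cilium. ZMYND10 (ENSBTAG00000020965) was at 14.7, 117 and 34.2 CPM in animals A, B and C on control day 4, at 15.3, 57.9 and 13.5 on control day 7, and at 5.15, 40.4 and 15.0 on treated day 7. In D, E and F it was at 14.8, 15.1 and 7.45 CPM on control day 4, at 9.31, 3.92 and 60.2 on control day 7, and at 39.5, 18.1 and 7.60 on treated day 7. Its groups overlapped on control day 4, where animals D and E lay just above A.

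TPPP3, a tubulin polymerization-promoting protein abundant in ciliated cells, had the highest mean CPM of the remaining members. TPPP3 (ENSBTAG00000019822) was at 65.7, 383 and 200 CPM in animals A, B and C on control day 4, at 48.0, 188 and 63.4 on control day 7, and at 18.0, 114 and 64.6 on treated day 7. Animals D, E and F had 41.8, 47.4 and 31.8 CPM on control day 4, 46.0, 15.1 and 190 on control day 7, and 109, 26.9 and 23.0 on treated day 7. The control day 4 arms did not overlap. AK7, an adenylate kinase of the axoneme, spanned 36.3-fold, MORN5 30.9-fold, and STK33, a serine/threonine kinase, 36.1-fold. In animal D TPPP3 was higher on control day 7 than on control day 4 (46.0 against 41.8 CPM), while AK7, MORN5 and STK33 were lower.

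The members were then compared between conditions and arms with edgeR's quasi-likelihood test, in 14 comparisons. The fit had no animal term, so its standard errors and intervals include differences between cows, also where the same cows were compared. No member passed an adjusted p of 0.05 in any of them. At an unadjusted p under 0.05 the count was 0 in 13 comparisons, where 1.26% to 26.9% of all genes tested had such a p, and 14 in the comparison of the arms on control day 4. DESeq2 called 6 members in that comparison, where it called 11.4% of all genes tested, and 0 in the other 13, where it called 0% to 17.9%. By limma voom the count was 0 in all 14, against 0% to 11.3% of all genes tested. The biological coefficient of variation over all genes was 51.4%, and the standard error of the FOXJ1 change was 0.94 to 0.98 on the log2 scale where groups of 3 were compared.

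**Figure D3:**
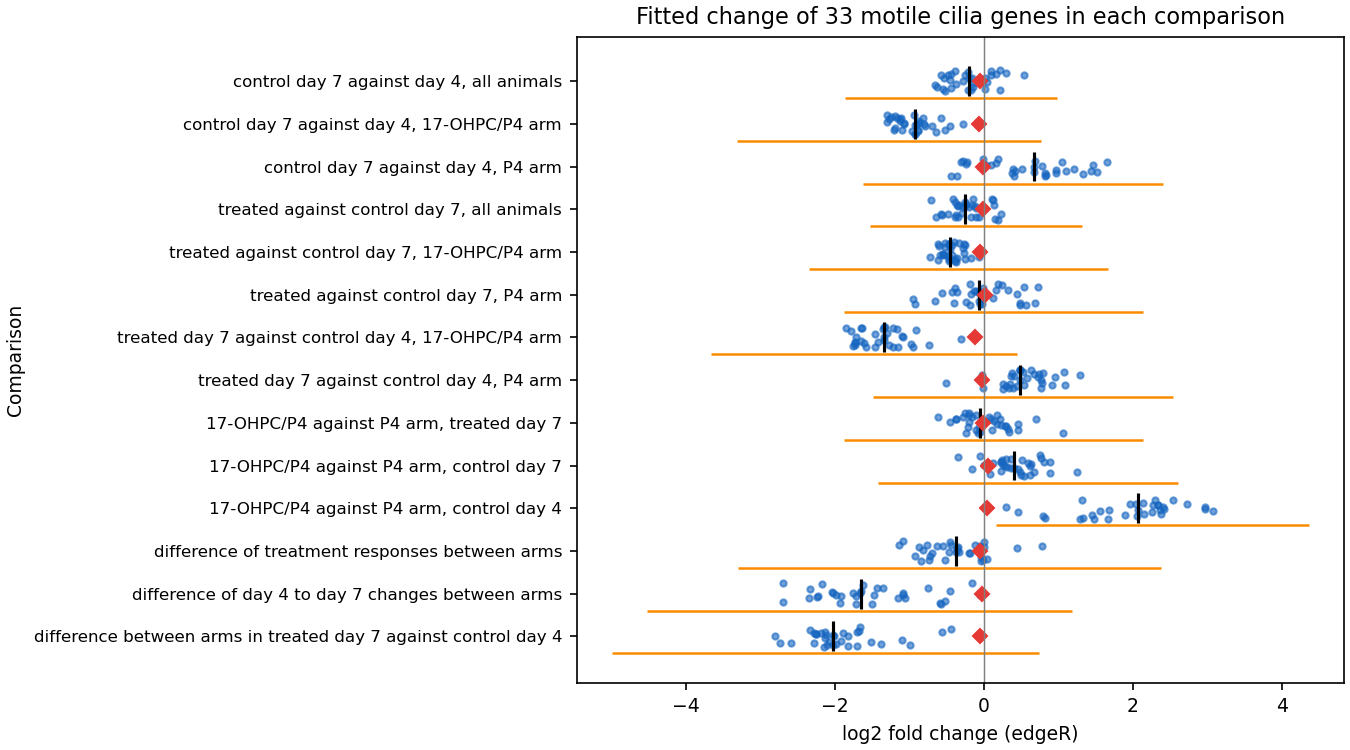
Fitted log2 fold change of each of the 33 motile cilia genes (blue points) in 14 comparisons, with their median (black bar), the median of all 19638 genes tested (red diamond) and the 95% confidence interval of FOXJ1 (orange line). The interval of FOXJ1 clears 0 only on control day 4 between the arms, and the members' median lies farthest from 0 there and in the difference between arms in treated day 7 against control day 4.

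From day 4 to day 7 of the untreated cycle, 5 of 6 animals had lower motile cilia genes on day 7 and 1 had them higher. The median change of the 33 genes was -0.11, -1.06 and -1.13 in animals A, B and C and -0.74, -1.78 and 2.48 in animals D, E and F, on the log2 CPM scale. In B, C and E all 33 genes were lower, in D 31, in A 20, and in F all 33 were higher. No member was called over all animals, where 10.6% of all genes tested were called, and the smallest adjusted p was 0.304 (RFX3, -0.66 ± 0.389). FOXJ1 gave -0.44 ± 0.665 (log2 fold change ± SE), with a 95% interval of -1.86 to 0.98.

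This comparison rested on animal F's control day 7 library. Without it, the members' median went from -0.20 to -1.05 and all 33 were below 0. RFX3 alone of the 33 passed (-1.23 ± 0.298, adjusted p = 0.0156, edgeR). With all libraries kept, 53.9% of all genes tested were below 0 and 10.6% were called, a larger share than 1 of 33. Leaving out animal B's control day 4 library moved the median to 0.32. The glandular and secretory list was higher, like the members, in animal F, from 102 CPM on control day 4 to 354 CPM on control day 7. The control day 7 library of F was also the lowest of all for the stromal, smooth muscle and endothelial marker lists (7.20, 1.71 and 1.02 CPM), and its epithelial markers were 0.30 higher on the log2 scale than in F on day 4. Their part in the result was not tested.

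Within the 17-OHPC/P4 arm all 33 members were below 0 from control day 4 to control day 7, with a median of -0.93 (all genes tested: -0.06, and 55.5% of them below 0). In 20 of 33 every animal was lower, where 22.5% of all genes tested had that pattern. No member was called, against 0.0407% of all genes tested, and FOXJ1 gave -1.27 ± 0.953 (adjusted p = 0.747). Without animal B's control day 4 library the median was 0.01 and only 16 members were below 0. In the P4 arm 26 members were above 0 (49.3% of all genes tested were) and 7 below, with a median of 0.67, yet 2 of the 3 animals had lower levels on day 7. No member was called there, where 8.65% of all genes tested were, and none was higher or lower in all 3 animals (23.7% and 27.3% of all genes tested were). TEKT4 (1.47 ± 0.835), ROPN1L (1.66 ± 1.05) and STK33 (1.52 ± 1.06) had the smallest p, and FOXJ1 gave 0.40 ± 0.941, or -0.16 with the animal as a replicate block. Without F's control day 7 library the P4 median was -1.0 and 32 of 33 members were below 0 (50.7% of all genes tested were with all libraries kept). RFX3 alone of the 33 was then called (-1.59 ± 0.455, adjusted p = 0.0399, edgeR). The difference of these changes between the arms had a median of -1.65, with all 33 members below 0 (51.9% of all genes tested were), and FOXJ1 at -1.67 ± 1.34. It called no member (0% of all genes tested) and went to a median of 0.13 without the same library.

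**Figure D4:**
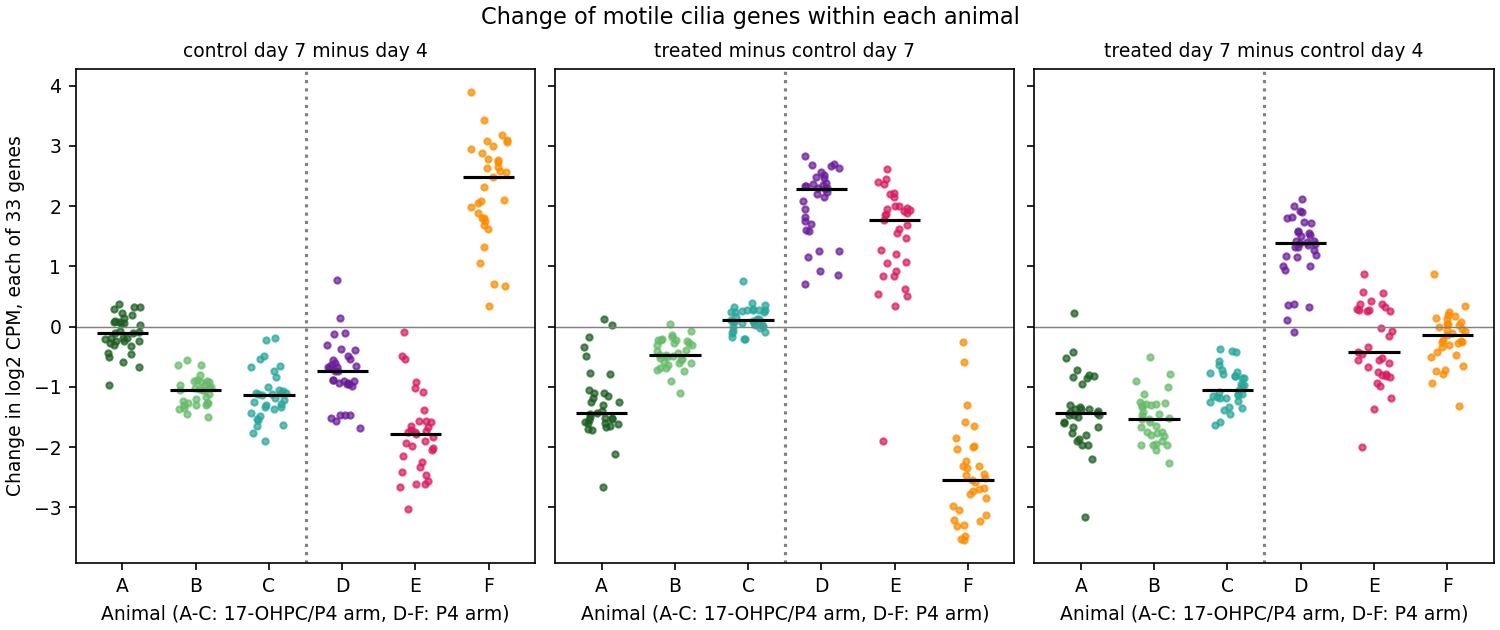
Change of each of the 33 motile cilia genes within each animal on the log2 CPM scale, for control day 7 minus day 4, treated minus control day 7, and treated day 7 minus control day 4; the bar is the median and the dotted line separates the arms. In the middle panel animals D and E lie above 0 and animal F below it, the mirror image of the left panel, which uses the same control day 7 libraries.

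Treated day 7 against control day 7 compares the injected cycle with the earlier control cycle at a matched day, so treatment and cycle change together. Again the animals of the P4 arm split: the median change was 2.28 in D, 1.78 in E and -2.56 in F, with all 33 genes higher in D, 32 in E and none in F. In the 17-OHPC/P4 arm it was -1.43, -0.46 and 0.10 in animals A, B and C. No member was called over all animals or in either arm, and neither was any other gene tested (0%). Over all animals the median of the members was -0.25, with TEKT4 at -0.71 ± 0.581 and FOXJ1 at -0.10 ± 0.664 (0.10 with libraries scaled to epithelial markers).

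Within the 17-OHPC/P4 arm the median was -0.45 and all 33 members were below 0 (54.9% of all genes tested were), 7 of them lower in every animal (20.9% of all genes tested were). FOXJ1 gave -0.34 ± 0.940 there, and leaving out animal B's control day 7 library turned the median to 0.32. In the P4 arm the median was -0.06 (0.23 with libraries scaled to epithelial markers) with 12 members above 0, where 51.7% of all genes tested were, and FOXJ1 gave 0.13 ± 0.940 with a 95% interval of -1.88 to 2.14. Without animal F's control day 7 library all 33 P4 arm members were above 0, with a median of 1.71, and without animal D's treated library the median was -0.93. The difference of the treatment responses between arms had a median of -0.37, with 28 of 33 members below 0 (54% of all genes tested were), and called no member or other gene (0%). Its median was -2.14 without F's control day 7 library and 0.43 without D's treated library. Over all other settings it ran from -2.54 without all libraries of F to 0.76 without all libraries of D.

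Against control day 4 of the same animals, the treated day 7 samples of the 17-OHPC/P4 arm were lower for nearly every member. The median change was -1.43, -1.54 and -1.06 in animals A, B and C, and 32 of the 33 genes were lower in every animal, where 30.3% of all genes tested were. DNAH12 was the exception, higher in animal A alone. The fitted median was -1.34, with all 33 below 0 (all genes tested: -0.12, and 57.1% below 0). No member was called, against 0.682% of all genes tested, and the smallest adjusted p was 0.281 (TEKT1, -1.10 ± 0.566), followed by TPPP3 (-1.72 ± 0.936) and DRC1 (-1.85 ± 1.01). FOXJ1 gave -1.61 ± 0.962 with an interval of -3.66 to 0.45, which includes differences between cows. Within animals A, B and C it changed by -2.20, -1.54 and -1.58 on the log2 CPM scale. All 33 members were also below 0 with the animal as a replicate block, at a median of -1.27, and without animal B's control day 4 library the median was -0.38.

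The P4 arm differed in sign between animals in the same comparison. Its median change was 1.38 in D, -0.42 in E and -0.15 in F, and the fitted median was 0.49 with 30 members above 0 (48.8% of all genes tested were). Higher in all 3 animals were 5 of 33 members (22.1% of all genes tested), namely DNAI2, DNAH7, DNAH12, ZMYND10 and ROPN1L. No member was called, where 7.48% of all genes tested were, and ROPN1L had the smallest p (1.30 ± 1.04). Without animal D's treated library the median was -0.41. The difference between the arms, a comparison added after the data were seen, was below 0 for all 33 members (53.6% of all genes tested), with a median of -2.02. For 26 of 33 the 3 animals of the 17-OHPC/P4 arm all lay below the 3 of the P4 arm, where 6.61% of all genes tested did. For each gene the fitted difference is the gap between the arms on treated day 7 minus the gap on control day 4. The members' median gap was -0.05 on treated day 7 and 2.07 on control day 4, before any injection. The difference called no member or other gene (0%), and FOXJ1 gave -2.13 ± 1.34 with an interval of -5.0 to 0.74.

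Between groups, the members' median lay farthest from 0 on control day 4, before any injection. There all 33 members had a higher fitted level in the 17-OHPC/P4 arm than in the P4 arm, with a median of 2.07 (all genes tested: 0.05, and 52.6% above 0). For 16 of 33 the arms did not overlap, against 15.6% of all genes tested. At an unadjusted p under 0.05, 14 of 33 were higher, where 11.7% of all genes tested were. STK33 (3.07 ± 1.12, adjusted p = 0.130), MORN5 (2.98 ± 1.08) and TEKT4 (2.35 ± 0.857) had the smallest p by edgeR, FOXJ1 gave 2.27 ± 0.983 (adjusted p = 0.193), and no member was called, against 2.76% of all genes tested.

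STK33 shows the gap in its values: 15.4, 97.6 and 37.1 CPM in animals A, B and C against 8.05, 5.83 and 3.95 CPM in D, E and F. MORN5 had 2.90, 23.5 and 7.10 CPM against 1.42, 1.49 and 1.33 CPM, and TEKT4 3.10, 12.3 and 4.59 CPM against 1.05, 1.56 and 1.31 CPM. In all 3 genes animal B was highest and the arms did not overlap, and for MORN5 and TEKT4 the P4 animals lay close together. DESeq2, which called 11.4% of all genes tested, called STK33, MORN5, TEKT4, CFAP206, ROPN1L and TPPP3, with adjusted p from 0.0211 to 0.0456. Without animal B's control day 4 library the median was 1.09, 30 members were above 0, and the count at an unadjusted p under 0.05 was 0.

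Markers of other cells also stood higher in the 17-OHPC/P4 arm in this comparison, with no marker called. The 6 secretory markers had a median of 1.86, the 8 stromal markers 1.21 and the 5 smooth muscle markers 2.99, and all of them were above 0. The smooth muscle level was 5.37, 4.49 and 80.3 CPM in animals A, B and C against 7.68, 5.31 and 8.18 CPM in D, E and F, so only animal C was high. Animal C was also high for the stromal list, at 477 CPM against 28.7 and 15.9 CPM in A and B and 54.8 to 91.5 CPM in the P4 arm, whereas the members were highest in B. The epithelial, endothelial and leukocyte lists had medians of -0.17, -0.26 and -0.35. The part of these markers in the result was not tested.

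On day 7 the arms overlapped for all 33 members in both cycles. Arms that did not overlap were found in 7.1% (17-OHPC/P4 higher) and 6.8% (lower) of all genes tested on control day 7, and in 6.33% and 7.08% on treated day 7. On control day 7 the median was 0.41 with 30 members above 0 (54.5% of all genes tested were). On treated day 7 it was -0.05, or 0.04 with libraries scaled to epithelial markers, with 16 members above 0 (48.7% of all genes tested were). No member was called on control day 7 or treated day 7, against 0.00509% and 0.0102% of all genes tested. FOXJ1 gave 0.60 ± 0.943 on control day 7 and 0.14 ± 0.940 on treated day 7. Without animal F's control day 7 library the control day 7 median was 2.15 with all 33 members above 0. Comparisons that use the same control libraries are not independent of each other, which holds for each set of day changes and arm contrasts here.

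Genes of the cilium outside the members were read from lists put together for this description. Of 77 other axoneme genes 71 were tested, and their geometric mean followed the members with rho 0.986 over the 18 libraries, from 3.11 CPM in animal E on control day 7 to 42.4 CPM in animal B on control day 4. On control day 4, 67 of 71 were higher in the 17-OHPC/P4 arm, with a median of 1.76 (52.6% of all genes tested were above 0), and 2 were called, a share near the 2.76% of all genes tested. Those were SPAG1, a dynein assembly factor also made outside ciliated cells (1.40 ± 0.262, adjusted p = 0.0228), and NME7, a kinase of the axoneme and the centrosome (1.10 ± 0.263, adjusted p = 0.0438). In the P4 arm 2 of 71 were called from control day 4 to control day 7 and 2 from control day 4 to treated day 7, below the 8.65% and 7.48% of all genes tested. SPAG1 and EFHB, a protein of the doublet interior, rose by control day 7 (1.37 ± 0.262, adjusted p = 0.00964, and 1.81 ± 0.506, adjusted p = 0.0402). By treated day 7 SPAG1 and DNAAF2, a dynein assembly factor, rose (1.40 ± 0.262, adjusted p = 0.0122, and 1.09 ± 0.220, adjusted p = 0.0141).

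SPAG1 did not follow the members. In animals D, E and F it was at 17.9, 14.4 and 14.0 CPM on control day 4, at 41.3, 37.2 and 41.8 on control day 7, and at 44.4, 38.7 and 39.8 on treated day 7. All 3 animals rose alike, F included, and day 4 did not overlap day 7. In animals A, B and C it was at 27.1, 61.9 and 33.8 CPM on control day 4, at 39.1, 34.1 and 26.1 on control day 7, and at 48.3, 40.8 and 31.9 on treated day 7. Each was higher on treated than on control day 7, and from control day 4 to control day 7 A was higher while B and C were lower.

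Intraflagellar transport and basal body genes (37 tested of 40) ran from 11.9 to 45.9 CPM and followed the members with rho 0.893. IFT20, which also serves primary cilia and the Golgi, was the only one called, and it rose in the P4 arm from control day 4 to control day 7 (0.89 ± 0.260, adjusted p = 0.0478) and to treated day 7 (1.04 ± 0.261, adjusted p = 0.0309). IFT88 lay between 15.2 and 67.2 CPM and was not called.

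The regulators that start multiciliogenesis followed the members less closely, with rho 0.719 for 14 tested of 15. Of these only TFDP1, an E2F partner used by all cycling cells, was called, lower on control day 7 than on day 4 (-0.53 ± 0.129 over all animals, adjusted p = 0.0184, and -0.67 ± 0.183 in the P4 arm, adjusted p = 0.0354). Of all genes tested, 10.6% were called over all animals and 8.65% in the P4 arm. GMNC, at the head of the cascade, had rho 0.80 with the members. It ran from 0.320 CPM in animal A on treated day 7 to 12.0 CPM in animal B on control day 4. MCIDAS and CCNO, which act early in basal body production, peaked in other libraries. In animals D, E and F, CCNO was at 0.950, 0.0658 and 1.21 CPM on control day 4, at 0.287, 0.485 and 11.5 on control day 7, and at 1.97, 22.1 and 0.679 on treated day 7. MCIDAS was highest in the same library of animal E, at 8.43 CPM, as was FOXN4, at 25.9 CPM, where the members' mean was 8.09 CPM.

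**Figure D5:**
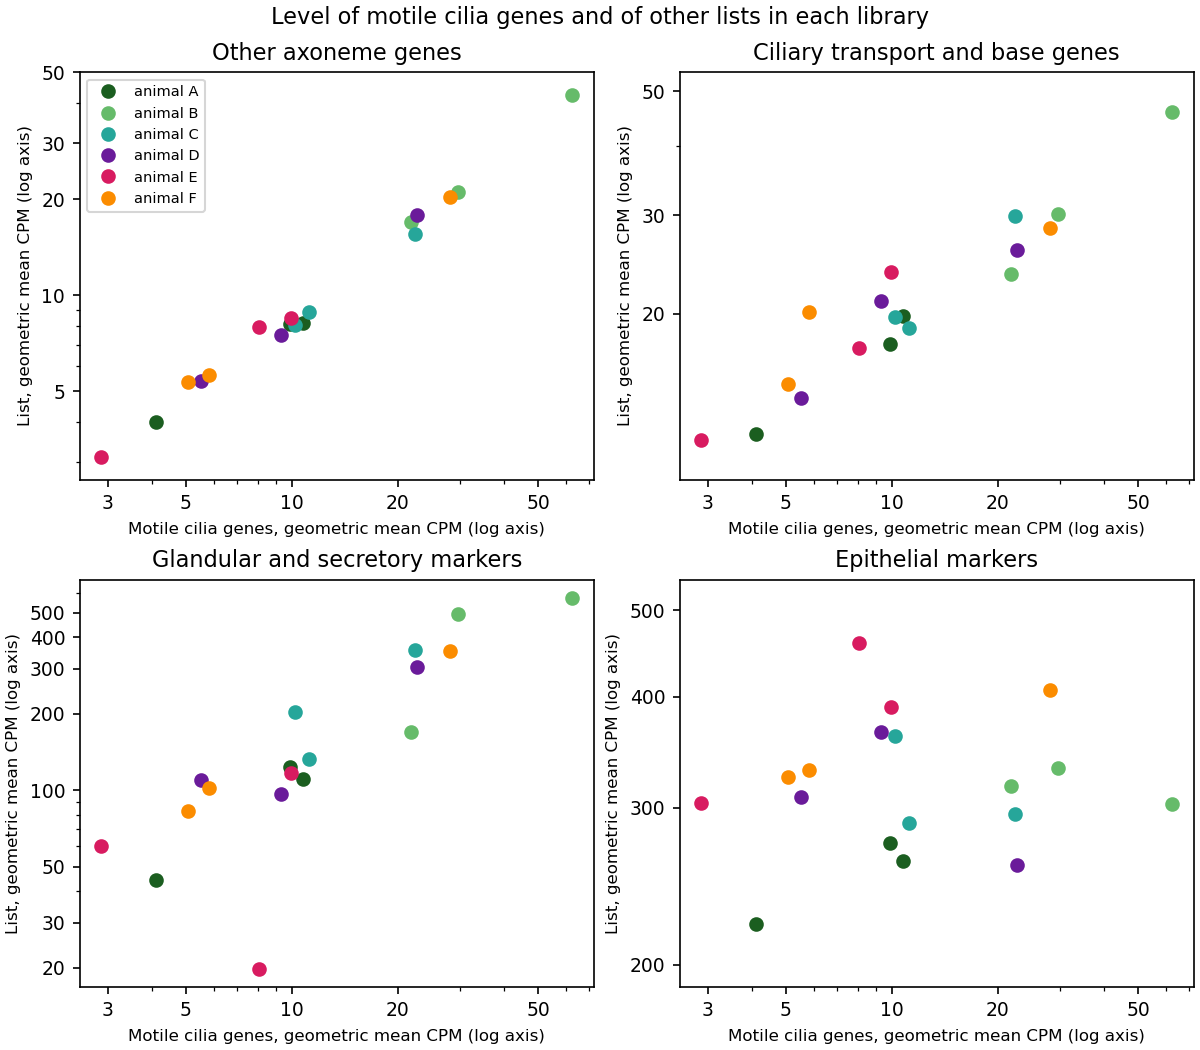
Geometric mean CPM of 4 gene lists against that of the 33 motile cilia genes, log axes, 1 point a library, coloured by animal. Other axoneme genes (rho 0.986) and transport genes (rho 0.893) lie along a rising line, as do secretory markers (rho 0.924) apart from animal E on treated day 7, while the mean of the epithelial markers (rho -0.001) shows no slope.

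Markers of other cells were read beside the members. Glandular and secretory markers (6 of 7 with a row, all detected in every library) had rho 0.924 with the members. Their summed level lay between 5022 and 23550 CPM on control day 4 in the 17-OHPC/P4 arm and between 1793 and 3030 CPM in the P4 arm. FOXA2, the gland transcription factor, had rho 0.907, LTF, lactoferrin, 0.926, PIGR, the transporter of secreted antibodies, 0.872, and CLDN10 0.876, whereas WFDC2 (0.166) and SPP1 (0.094) were far lower. Animal E on treated day 7 stood apart, with the lowest secretory level, 19.8 CPM, and an members' mean of 8.09 CPM. Whether the share of glandular tissue in a brushing has a part in these results was not tested.

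General epithelial markers went both ways against the members, from rho 0.831 for KRT18 and 0.575 for KRT19 to -0.579 for CLDN7 and -0.614 for CDH1, so the rho of -0.001 is that of their mean only. This mean lay between 222 and 459 CPM, and its change within an animal was -0.50 to 0.60 on the log2 scale in all 3 within-animal contrasts, where the members' mean change ran from -2.47 to 2.27. The Spearman correlation with the members was -0.108 for stromal, 0.139 for smooth muscle, -0.205 for endothelial, -0.123 for leukocyte and 0.036 for squamous epithelial markers, and -0.044 for the library total. In the P4 arm 4 markers of these lists were called by edgeR from control day 4 to control day 7, where 8.65% of all genes tested were. They were 1 of 4 squamous, 1 of 11 epithelial and 2 of 11 leukocyte markers tested. KRT14, a squamous keratin (3.93 ± 0.722, adjusted p = 0.00777), and CLDN7 (1.35 ± 0.372, adjusted p = 0.0377) were higher. CD3E (-1.21 ± 0.307, adjusted p = 0.0277) and CD3D (-1.29 ± 0.355, adjusted p = 0.0374), of T cells, were lower. KRT14, CLDN7 and CD3E were also called over all animals (10.6% of all genes tested were). KRT14 and CLDN7 were called from control day 4 to treated day 7 in the P4 arm (7.48% of all genes tested were). Their part in the members' values was not tested. Scaling the libraries to the 11 epithelial markers left 0 members called in all 14 comparisons and gave a median of 2.39 on control day 4 between the arms.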

How the data were processed

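The deposited table holds raw counts per gene for 38001 Ensembl identifiers (17715 without a symbol); 0 of its columns belong to other samples. Per the submitters' processing notes, the authors used cutadapt, FastQC, STAR, featureCounts and DESeq2; the sources used here do not give genome build, annotation, strand or pair counting, so no coordinates are printed. Counts from 1 to 20 were even in 78.3% of cases (50.8% above 1000), so independent fragments may be fewer than counts.

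Genes passing filterByExpr (19638) were tested with edgeR 4.0.16 in R 4.3.3 (TMM factors 0.881 to 1.16, robust quasi-likelihood F test, 1 mean per group over all 18 libraries, no animal term). The Benjamini-Hochberg adjustment ran over the 19638 genes, with a call at an adjusted p below 0.05. Alternatives used limma 3.58.1 voom, DESeq2 1.42.0, other scalings and filters, the animal as a replicate block, and libraries or animals left out. A prior count of 2 entered log2 CPM and list levels. CPM is not scaled by gene length, so levels are not compared between genes.

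Same-lettered samples come from the same cow, which pairs them by design; deviations of the 18 same-animal pairs correlated from -0.071 to 0.718 (median 0.375). No 2 libraries were identical. Replicates are separate animals.

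Members and gene lists were chosen with earlier results of these data known. The text names the called members of each comparison or else those with the smallest p (at most 3), FOXJ1, the member with the highest mean CPM in each role, and called genes of other cilia lists. Other members were named after their values were seen, to give ranges and exceptions. The script was tested on simulated data.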

Additional observations from a re-analysis of the deposited data

Results flagged for a closer look

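In 4 members every animal of the 17-OHPC/P4 arm was lower on treated day 7 than on control day 4 and every animal of the P4 arm was higher. They were picked by this pattern, and the share of all genes tested that had it was not counted. Lower in all 3 animals of the 17-OHPC/P4 arm were 32 of 33 members, against 30.3% of all genes tested. Higher in all 3 of the P4 arm were 5 of 33, against 22.1%. The mean log2 change in the 17-OHPC/P4 arm minus that in the P4 arm was -2.0 for DNAI2, -0.86 for DNAH7, -1.97 for ZMYND10 and -2.09 for ROPN1L. The sign of these differences was set by the way the genes were picked. The test of that difference by edgeR gave -2.19 ± 1.31 for DNAI2, -1.0 ± 0.671 for DNAH7, -2.26 ± 1.46 for ZMYND10 and -2.27 ± 1.46 for ROPN1L, each with an adjusted p of 0.9999. In the P4 arm the rise was 1.57, 0.38 and 0.19 in animals D, E and F for DNAI2 and 1.41, 0.26 and 0.03 for ZMYND10, so animal F was close to 0.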

How the results depend on the processing

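Over 289 counts of called members under other settings, 285 were 0. DESeq2 called 6 between the arms on control day 4. Leaving out libraries gave 0 to 1 called members from control day 4 to 7, over all animals and in the P4 arm (RFX3, without animal F's control day 7 library, and over all animals also without all of animal F). Of 1139 log2 fold changes of named members under other settings, 1090 kept the direction reported. With the animal as a replicate block, paired by cow, no call changed in the comparisons fitted. Those between the arms within 1 condition, control day 4 included, cannot be fitted with this block. FOXJ1 changed sign with the block from control day 4 to 7 in the P4 arm (-0.16; limma voom -0.45) and for treated against control day 7 over all animals (0.085; limma voom 0.11, epithelial scaling 0.10), and by limma voom between the arms on treated day 7 (-0.18).

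Leaving out 1 library or animal reversed these values. From control day 4 to 7 DNAH12 ran from -0.41 to 0.0040 over all animals, and in the P4 arm FOXJ1 from -1.75 to 0.95, ROPN1L from -0.87 to 2.53 and STK33 from -0.80 to 2.19. For treated against control day 7 over all animals FOXJ1 ran from -0.58 to 1.12 and TPPP3 from -1.25 to 0.27. In the 17-OHPC/P4 arm FOXJ1 ran from -1.29 to 0.47, TEKT1 from -0.87 to 0.073, SPAG6 from -1.66 to 0.28 and TPPP3 from -1.27 to 0.27, and in the P4 arm FOXJ1 from -0.65 to 2.58 and TEKT4 from -2.42 to 0.44. Between the arms FOXJ1 ran from -0.13 to 2.71 on control day 7 and from -0.81 to 0.62 on treated day 7, where TP73 ran from -1.25 to 0.44. The difference between arms in the day change ran from -2.37 to 0.48 for FOXJ1, and that in the treatment response from -2.91 to 0.37 for FOXJ1 and from -2.75 to 0.36 for DNAH9.

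Other scalings, left-out animals and the added difference between arms were chosen after seeing the data. Scaling moved the median of all genes most on control day 4 between the arms (0.05 to 0.39, epithelial markers) and from control day 4 to treated day 7 in the P4 arm (-0.02 to -0.31, total counts). With 3 animals a group the interval of FOXJ1 was wide (-1.88 to 2.14 for treated against control day 7 in the P4 arm), and a change within it was not detectable. SPAG16, with at most 101 counts in a library, is limited by depth. The cause of these shifts was not tested.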
